A study of Mus musculus with 36 samples.

Results

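Collagens are the triple-helical proteins of the extracellular matrix. The collagen genes were taken as every row of the hippocampal RNA count table whose Ensembl ID carries a symbol of the form Col, a type number, a and a chain number. The rule found 44 genes among the 37991 of the table, and 39 of them were expressed highly enough to be tested among 14457 tested genes. They comprise 11 fibrillar, 6 basement membrane (type IV), 2 multiplexin, 6 type VI, 3 network, 9 FACIT, 4 transmembrane and 3 other chains. Col6a6, Col10a1, Col9a1, Col17a1 and Col28a1 fell under the filter on low counts, with no library above 3.82 CPM (gene counts scaled to a fixed library size).

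Each chain is made in the endoplasmic reticulum, where lysine and proline residues are hydroxylated and 3 chains wind into a helix, then is secreted, trimmed at its ends and cross-linked. Fibrillar collagens form the cables of connective tissue, type IV forms the sheet-like network of basement membranes, and FACIT and multiplexin collagens bind to fibrils or basement membranes. In brain most collagen lies in the meninges, around vessels and in the vascular basement membrane. Astrocytes, pericytes, endothelial cells and perivascular fibroblasts each contribute, and some collagens, Col19a1 and Col25a1 among them, are made by neurons.

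The RNA came from the hippocampus of 3-month-old female mice of the CK-p25 line, a double-transgenic model of neurodegeneration that switches on p25, a cleaved form of the Cdk5 activator p35. The CKp25 animals were collected 2 or 6 weeks after induction, beside control littermates (CK) at the same times. In this line a CamKII promoter restricts p25 to forebrain neurons. The labels do not say which transgene the CK littermates carry. Each of the 4 groups has 3 libraries, with 5029996 to 6450140 gene counts per library. Within a group the libraries are numbered 1 to 3 in the order in which values are given. The labels do not call them separate animals, and the spread behind each p may therefore be technical. Age at collection and anything shared by all libraries of a time cannot be told apart from time after induction.

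Libraries stood apart in one way that touches several collagens. The summed level of 10 choroid plexus markers (Ttr, Kl, Folr1 and others) spanned 34.5 to 1276 CPM in CKp25 and 24.2 to 1048 CPM in CK at 2 weeks, and 25.0 to 2273 CPM in CKp25 and 44.3 to 2625 CPM in CK at 6 weeks. Of the 12 libraries, 7 had a sum of at least 369 CPM and the other 5 of at most 44.3 CPM. At 2 weeks CK library 1 also carried the most fibroblast marker signal of its group, 324 CPM summed over 13 markers against 191 and 133 CPM in the other CK libraries. Microglial genes, as a check of the model, were called higher in CKp25 in 8 of 8 cases at both times. Among all tested genes 11.6% were called higher at 2 weeks and 18.1% at 6 weeks. Neuronal markers were called lower in 5 of 11 cases at 2 weeks and 8 of 11 at 6 weeks, against 7.99% and 15.2% of all genes. In bulk tissue, fewer cells of a type and less RNA per cell cannot be told apart.

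At 2 weeks 6 of 39 collagens were higher in CKp25 than in CK and 0 were lower (edgeR quasi-likelihood test, Benjamini-Hochberg adjusted p under 0.05 over all genes). They were Col16a1, Col15a1, Col27a1, Col2a1, Col6a4 and Col4a1. DESeq2 and limma-voom also called 0 lower, and the 9 collagens with an unadjusted p under 0.05 were all higher in CKp25. That is 15.4% of the collagens, against 11.6% of all tested genes called higher and 7.99% called lower, so the share called higher was near the background. The median log2 fold change was 0.27 over the 39 collagens and -0.01 over all genes.

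At 6 weeks 13 collagens were higher in CKp25 and 2 were lower, 33.3% and 5.13% of those tested. Among all genes 18.1% were called higher and 15.2% lower. The median log2 fold change was 0.60 over the collagens and 0.00 over all genes. By class, 6 of 11 fibrillar genes rose, 2 of 6 type IV genes rose and 1 fell, 2 of 8 FACIT genes, 1 of 2 multiplexins, 1 of 3 transmembrane collagens and 1 of 5 type VI genes rose, and 1 type VI gene fell. Neither network gene was called. In all, 17 collagens were called at one time or both and 22 at neither. That count was not made over all genes, so these numbers have no background share beside them. Col16a1, Col15a1 and Col27a1 were called higher at both times.

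**Figure D1:**
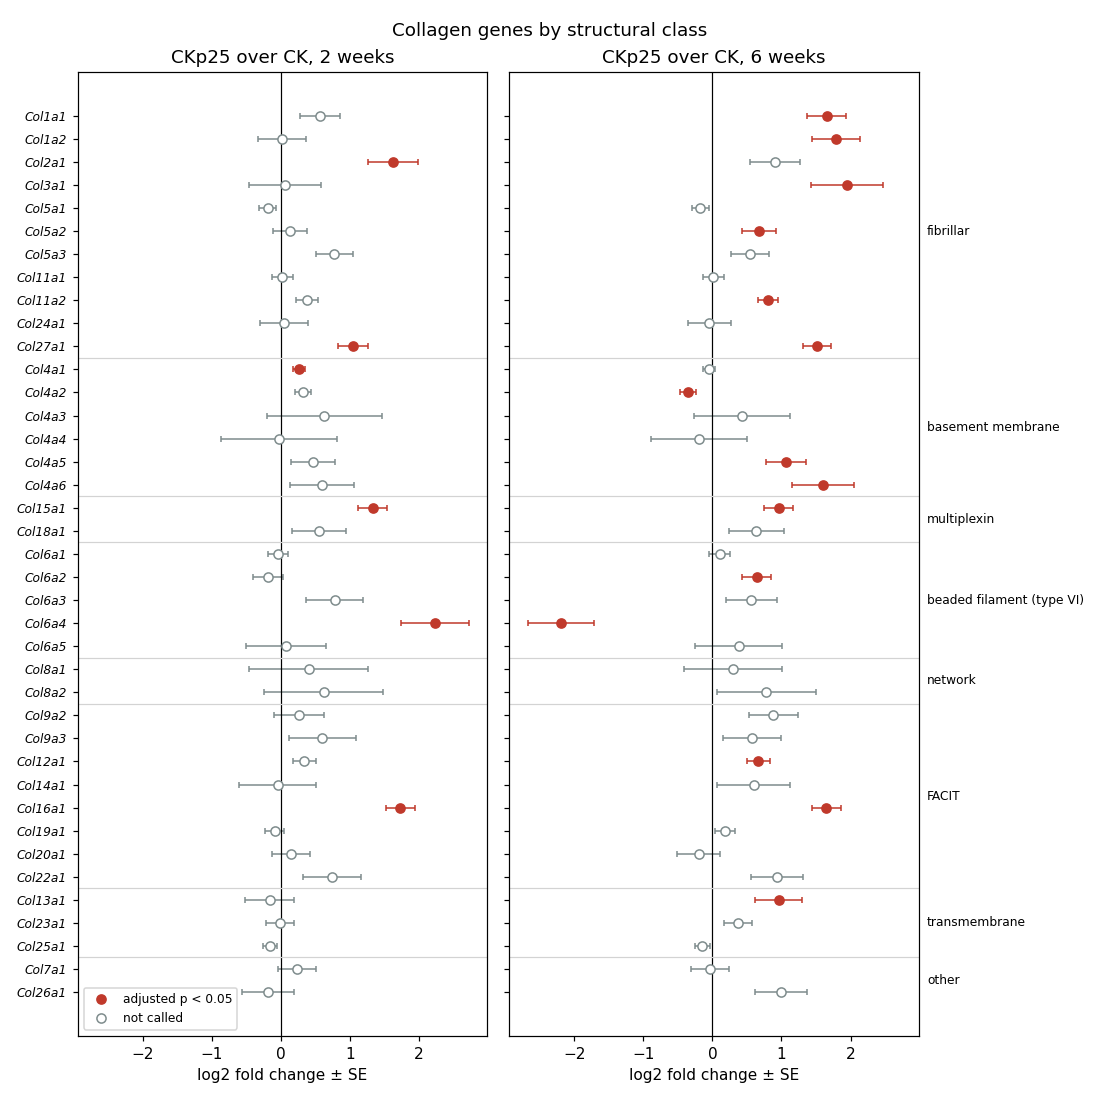
Log2 fold change, CKp25 over CK, with its standard error, for the 39 tested collagens at 2 weeks (left) and 6 weeks (right), grouped by structural class. Filled red points passed an adjusted p under 0.05. Col6a4 is the point at 2.23 on the left and -2.20 on the right, and Col1a1, Col1a2 and Col3a1 lie between 1.65 and 1.94 on the right.

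The summed level of all 44 collagens was 678 ± 76.7 CPM in CKp25 and 559 ± 75.5 CPM in CK at 2 weeks, and 769 ± 104 CPM in CKp25 and 577 ± 50.5 CPM in CK at 6 weeks (SD, n = 3 libraries each). The ranges of CKp25 and CK overlapped at 2 weeks (629 to 766 and 493 to 641 CPM) and did not at 6 weeks (655 to 858 and 525 to 625 CPM). Levels are not corrected for transcript length, so they are compared between groups and not between genes.

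Col16a1 encodes a FACIT collagen that sits at fibril surfaces and at the edge of basement membranes. It had 68.9, 47.7 and 50.2 CPM in CKp25 and 20.5, 15.6 and 14 CPM in CK at 2 weeks. At 6 weeks it had 55.2, 33.7 and 61.3 CPM in CKp25 and 17.9, 15 and 14.8 CPM in CK. Every CKp25 library was above every CK library at both times. The log2 fold change was 1.73 ± 0.21 (SE; adjusted p = 9.27e-06) at 2 weeks and 1.65 ± 0.21 (SE; adjusted p = 1.74e-05) at 6 weeks. The difference between those effects was -0.08 ± 0.30 (SE; adjusted p = 0.937), which did not pass.

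Col15a1, whose product is a multiplexin at the outer face of vascular and muscle basement membranes, had 7.0, 9.09 and 8.01 CPM in CKp25 and 3.02, 3.48 and 3.05 CPM in CK at 2 weeks. Its 6-week levels were 7.0, 7.09 and 6.55 CPM in CKp25 and 3.46, 3.24 and 3.84 CPM in CK. The groups did not overlap at either time. Its log2 fold change was 1.33 ± 0.21 (SE; adjusted p = 0.000160) at 2 weeks and 0.96 ± 0.21 (SE; adjusted p = 0.00181) at 6 weeks. The other multiplexin gene, Col18a1, the source of endostatin, was at 8.53 to 10.6 CPM in CKp25 and 3.27 to 11.7 CPM in CK at 2 weeks, and 6.28 to 14 CPM in CKp25 and 3.64 to 8.73 CPM in CK at 6 weeks. Its groups overlapped at both times and it was not called.

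Col27a1, a fibrillar collagen best known from cartilage, stood at 16.3, 10.9 and 12.6 CPM in CKp25 and 8.89, 4.91 and 5.28 CPM in CK at 2 weeks. In the 6-week libraries it had 26.2, 21.3 and 20.9 CPM in CKp25 and 8.75, 6.88 and 8.21 CPM in CK. Both times separated the groups. The log2 fold change was 1.05 ± 0.22 (SE; adjusted p = 0.00229) at 2 weeks and 1.51 ± 0.20 (SE; adjusted p = 2.46e-05) at 6 weeks. Within CKp25 it was higher at 6 weeks than at 2 weeks by 0.76 ± 0.18 (SE; adjusted p = 0.0121), a call that was lost without 2-week CKp25 library 2 or 3 or 6-week CKp25 library 1 (adjusted p 0.0528 to 0.0734).

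The promoter window of Col16a1 is shown because this gene had the lowest adjusted p of the collagens at both times. Promoter windows, from 250 bases before to 50 after the annotated start, are RefSeq sequence on GRCm38.p6, and 35 of the 44 collagens have one. Coordinates are of that build, which is not the one the reads were aligned to. The window is chr4:130047590-130047889 on the plus strand, with matches to CCAAT and GGGCGG, on either strand, in capitals.
Col16a1: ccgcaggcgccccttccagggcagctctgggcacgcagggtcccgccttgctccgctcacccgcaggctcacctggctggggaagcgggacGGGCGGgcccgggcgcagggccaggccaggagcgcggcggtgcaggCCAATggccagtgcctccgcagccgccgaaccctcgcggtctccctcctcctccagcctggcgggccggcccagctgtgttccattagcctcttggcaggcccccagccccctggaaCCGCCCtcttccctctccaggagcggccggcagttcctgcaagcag
The 35 collagens have 38 windows, and a collagen was counted if any of its windows held the letters. The share of all windows is per window. Among the 35 collagens with a window, 22 (62.9%) held GGGCGG on either strand, the letters of the GC box, against 35.7% of all 32851 windows. CCAAT stood in 13 (37.1%) against 37.4% of all windows, TATAAA in 5 (14.3%) against 13.6%, and the AP-1 letters TGANTCA in 1 (2.86%) against 7.81%. Matches did not overlap each other in the windows printed here, and a match of letters is a description and not a binding site.

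The type I and type III genes, which make the fibrils of loose connective tissue, were separated by genotype at 6 weeks and not at 2 weeks. Col1a1, the alpha 1 chain of type I, had 7.0, 9.09 and 9.48 CPM in CKp25 and 8.22, 5.73 and 2.85 CPM in CK at 2 weeks. The values at 6 weeks were 14.4, 11.6 and 18.9 CPM in CKp25 and 4.07, 4.45 and 5.59 CPM in CK. At 2 weeks CK library 1 lay within the range of CKp25, and at 6 weeks the groups did not overlap.

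Col1a2, the alpha 2 chain of type I, had 17.2, 23.4 and 19.9 CPM in CKp25 and 33.5, 17.6 and 7.11 CPM in CK at 2 weeks. Its levels at 6 weeks were 43, 30.3 and 58.7 CPM in CKp25 and 13.6, 10.7 and 13.6 CPM in CK. The 6-week CKp25 libraries were all above the CK libraries. Col3a1, the type III chain that forms thin fibrils with type I, had 3.50, 5.75 and 6.05 CPM in CKp25 and 10.1, 3.07 and 0.813 CPM in CK at 2 weeks. At 6 weeks Col3a1 had 13, 7.25 and 14 CPM in CKp25 and 2.44, 1.82 and 4.37 CPM in CK. For both genes CK library 1 was above all 3 CKp25 libraries at 2 weeks, and the groups were apart at 6 weeks.

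The log2 fold changes at 6 weeks were 1.65 ± 0.28 (SE; adjusted p = 0.000260) for Col1a1, 1.79 ± 0.35 (SE; adjusted p = 0.000723) for Col1a2 and 1.94 ± 0.52 (SE; adjusted p = 0.00827) for Col3a1, folds of 3.14, 3.45 and 3.85. At 2 weeks they were 0.57 ± 0.29 (SE; adjusted p = 0.187) for Col1a1, 0.01 ± 0.35 (SE; adjusted p = 0.987) for Col1a2 and 0.06 ± 0.52 (SE; adjusted p = 0.958) for Col3a1. The difference between the times did not pass for any of them, at 1.08 ± 0.41 (SE; adjusted p = 0.232) for Col1a1, 1.78 ± 0.49 (SE; adjusted p = 0.102) for Col1a2 and 1.89 ± 0.74 (SE; adjusted p = 0.253) for Col3a1. For Col1a2 this difference was called without 2-week CK library 3 (2.16, adjusted p = 0.0221) or 6-week CKp25 library 2 (1.98, adjusted p = 0.0490). It was also called with the choroid plexus marker mean as a term (1.80, adjusted p = 0.0188). The same held with the share of reads with several alignments as a term (2.20, adjusted p = 0.0307). CKp25 and CK did not overlap in that share at 6 weeks. With no filter on low counts the difference between the times was called for all 3 genes, at nearly the same values. They were 1.08 (adjusted p = 0.0352) for Col1a1, 1.78 (adjusted p = 6.11e-16) for Col1a2 and 1.89 (adjusted p = 0.000110) for Col3a1. Over all genes that setting called 425 higher and 268 lower in this difference, instead of 54 and 26. Why the p fell so far was not tested. Without 2-week CK library 1, Col1a1 was called higher at 2 weeks as well (log2 fold change 0.98, adjusted p = 0.0346). Without both that library and 2-week CKp25 library 1, Col3a1 was called higher at 2 weeks too (1.60, adjusted p = 0.0384).

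Promoter windows of Col1a2 and Col3a1 are shown as the pair of fibril genes with windows whose levels were high in the same libraries. They are chr6:4505368-4505667 and chr1:45311288-45311587, both on the plus strand, with CCAAT and GGGCGG matches in capitals for Col1a2 and a TATAAA match for Col3a1.
Col1a2: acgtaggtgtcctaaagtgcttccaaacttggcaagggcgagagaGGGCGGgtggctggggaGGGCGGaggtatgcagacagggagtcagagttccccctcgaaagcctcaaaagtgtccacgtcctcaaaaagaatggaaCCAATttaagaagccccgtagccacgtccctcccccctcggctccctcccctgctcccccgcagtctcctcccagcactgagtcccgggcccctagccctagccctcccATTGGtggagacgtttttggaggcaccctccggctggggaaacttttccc
Col3a1: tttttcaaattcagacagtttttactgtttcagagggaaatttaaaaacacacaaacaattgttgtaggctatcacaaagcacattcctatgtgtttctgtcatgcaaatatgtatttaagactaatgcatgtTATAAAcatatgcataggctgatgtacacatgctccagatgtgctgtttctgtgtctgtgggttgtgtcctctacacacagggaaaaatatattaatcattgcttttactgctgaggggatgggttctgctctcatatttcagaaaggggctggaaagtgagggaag
No motif of the 4 searched was found in both windows.

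Among the other fibrillar genes, Col11a2, a minor fibrillar chain, had 47.2, 40.4 and 36.1 CPM in CKp25 and 27.7, 33.3 and 34.8 CPM in CK at 2 weeks. Its 6-week levels were 76, 54.9 and 70.7 CPM in CKp25 and 32.1, 46.7 and 36.5 CPM in CK. The groups were apart at both times, but only the 6-week difference passed: 0.80 ± 0.14 (SE; adjusted p = 0.000418) against 0.38 ± 0.15 (SE; adjusted p = 0.0940) at 2 weeks. The difference between these effects was 0.42 ± 0.21 (SE; adjusted p = 0.378).

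Col5a2, a type V chain that sets fibril width, had 19.7, 14.8 and 13.6 CPM in CKp25 and 22.3, 11.5 and 9.55 CPM in CK at 2 weeks. In the 6-week libraries it had 24, 18.8 and 18.9 CPM in CKp25 and 10.4, 14.8 and 13.3 CPM in CK, and the groups did not overlap. It was called at 6 weeks at 0.68 ± 0.25 (SE; adjusted p = 0.0427), and the call was lost on leaving out any 6-week library or 2-week CKp25 library 2 (adjusted p 0.0507 to 0.162). At 2 weeks it was called only without CK library 1 (0.61, adjusted p = 0.0482).

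Col2a1, the chain of cartilage fibrils, was a low gene that was called at 2 weeks alone. It had 3.79, 5.19 and 5.23 CPM in CKp25 and 2.01, 1.64 and 0.813 CPM in CK at 2 weeks. The values at 6 weeks were 5.20, 3.70 and 2.36 CPM in CKp25 and 1.63, 1.62 and 2.62 CPM in CK, where the groups overlapped. The log2 fold change was 1.62 ± 0.36 (SE; adjusted p = 0.00413) at 2 weeks and 0.91 ± 0.36 (SE; adjusted p = 0.0651) at 6 weeks, and the difference between the times, -0.72 ± 0.53 (SE; adjusted p = 0.586), did not pass. It was called at 6 weeks without CKp25 library 3 (1.15, adjusted p = 0.0291) or without CK library 3 (1.19, adjusted p = 0.0463).

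Col5a1 and Col11a1, the other main chains of types V and XI, did not follow. Col5a1 had 30.6, 26.2 and 23.2 CPM in CKp25 and 32.9, 31.1 and 27.2 CPM in CK at 2 weeks, and 21.4, 25.4 and 27.3 CPM in CKp25 and 27.3, 27.1 and 29.5 CPM in CK at 6 weeks. Col11a1 had 19.4, 20.8 and 22.1 CPM in CKp25 and 22.8, 17.6 and 20.5 CPM in CK at 2 weeks, and 18.8, 17.2 and 16.7 CPM in CKp25 and 15.1, 22.5 and 14.8 CPM in CK at 6 weeks. CKp25 and CK overlapped for both genes at both times, with log2 fold changes between -0.19 and 0.02. Of the low fibrillar genes, Col5a3 ranged from 3.05 to 8.60 CPM and Col24a1 from 1.22 to 4.54 CPM over the 12 libraries. Neither was called, although Col5a3 did not overlap at 2 weeks (0.78 ± 0.27 SE, adjusted p = 0.0546).

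**Figure D2:**
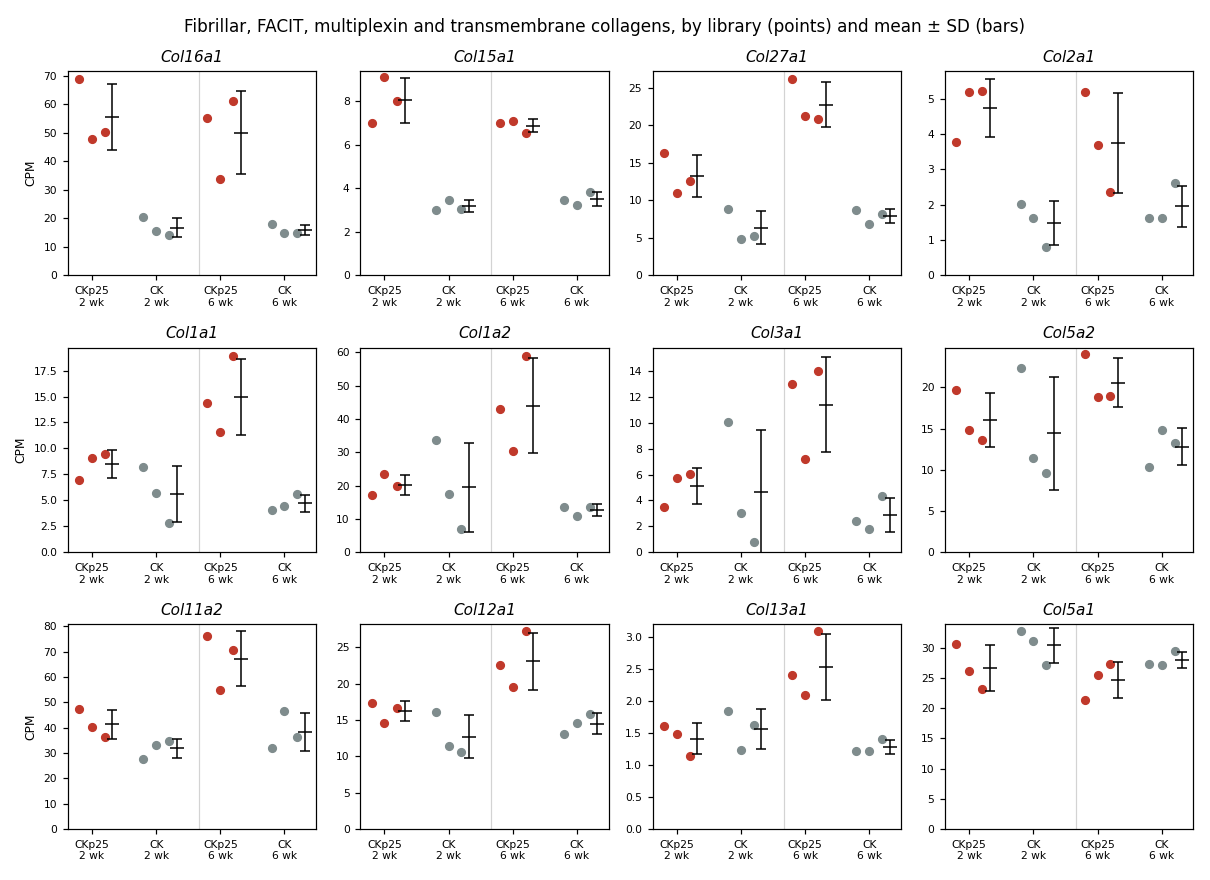
CPM in each library (points) with the group mean and SD (black bars, cut at 0) for 12 fibrillar, FACIT, multiplexin and transmembrane collagens, CKp25 in red and CK in grey at 2 and at 6 weeks. Col16a1, Col15a1 and Col27a1 are apart at both times. Col1a1, Col1a2 and Col3a1 are apart at 6 weeks, while 1 CK library at 2 weeks stands high.

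The type IV genes come in pairs that lie head to head on the genome. Their products form a network of alpha 1 and alpha 2 chains in nearly all basement membranes, and others of alpha 5 with alpha 6, or alpha 3 and alpha 4 with alpha 5, in particular tissues. The pairs differed at 6 weeks. Col4a5 and Col4a6 were higher in CKp25, whereas Col4a2 was lower and Col4a1 was not called.

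Col4a1 had 88.2, 74.2 and 77 CPM in CKp25 and 66.1, 67.7 and 65.6 CPM in CK at 2 weeks. Its levels at 6 weeks were 61.8, 66.8 and 62.9 CPM in CKp25 and 59.6, 75.3 and 63.4 CPM in CK. The groups were apart at 2 weeks and overlapped at 6 weeks. Col4a2 had 110, 90.9 and 84.7 CPM in CKp25 and 71.3, 83.7 and 73.8 CPM in CK at 2 weeks. For Col4a2 the levels at 6 weeks were 61.2, 62 and 60.9 CPM in CKp25 and 74.7, 94.5 and 66.9 CPM in CK.

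At 2 weeks all CKp25 libraries were above all CK libraries for both genes. At 6 weeks the order of the groups was turned for Col4a2, with every CKp25 library below every CK library, and Col4a1 overlapped. Col4a1 was called higher at 2 weeks at 0.27 ± 0.09 (SE; adjusted p = 0.0458), a call lost with DESeq2 (adjusted p = 0.0668), with limma-voom (0.0525) and without 2-week CKp25 library 1 or 3, any 2-week CK library, or library 3 of either group at 6 weeks (0.0521 to 0.173). Its 6-week value was -0.05 ± 0.09 (SE; adjusted p = 0.739). Col4a2 gave 0.32 ± 0.11 (SE; adjusted p = 0.0595) at 2 weeks and -0.35 ± 0.12 (SE; adjusted p = 0.0293) at 6 weeks. The 6-week call was lost without CKp25 library 1 or 3 or CK library 2 (adjusted p 0.0715 to 0.191), and without the last the value was -0.21. At 2 weeks Col4a2 was called without 2-week CKp25 library 3 (0.41, adjusted p = 0.0400), 6-week CK library 2 (0.32, adjusted p = 0.0261) or 6-week CK library 3 (0.32, adjusted p = 0.0400).

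The test of the difference between the times gave -0.68 ± 0.17 (SE; adjusted p = 0.0668) for Col4a2 and -0.31 ± 0.13 (SE; adjusted p = 0.272) for Col4a1, neither of them called. For Col4a2 it was called with DESeq2 (-0.68, adjusted p = 0.0151), with the choroid plexus marker mean as a term (-0.69, adjusted p = 0.0305) and without 6-week CK library 3 (-0.79, adjusted p = 0.0431). With no filter on low counts it was called too (-0.68, adjusted p = 4.00e-05), in a setting that called more of all genes. Within CKp25, both genes were lower at 6 weeks than at 2 weeks, with log2 fold changes of -0.63 ± 0.12 (SE; adjusted p = 0.00215) for Col4a2 and -0.32 ± 0.09 (SE; adjusted p = 0.0262) for Col4a1. The Col4a1 call was lost without 2-week CKp25 library 1 or 6-week CKp25 library 1 or 3 (adjusted p 0.0849 to 0.102), and the Col4a2 call held without any single library. In CK the values were 0.04 ± 0.12 (SE; adjusted p = 1.00) for Col4a2 and -0.01 ± 0.09 (SE; adjusted p = 1.00) for Col4a1.

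The annotated starts of Col4a1 and Col4a2 lie 21 bases apart on opposite strands of chromosome 8, and their windows share 78 bases. Each start lies inside the other gene, so in this annotation their first bases overlap and no gap separates them. The window of Col4a2, chr8:11312555-11312854 on the plus strand, is shown with the shared bases in capitals.
Col4a2: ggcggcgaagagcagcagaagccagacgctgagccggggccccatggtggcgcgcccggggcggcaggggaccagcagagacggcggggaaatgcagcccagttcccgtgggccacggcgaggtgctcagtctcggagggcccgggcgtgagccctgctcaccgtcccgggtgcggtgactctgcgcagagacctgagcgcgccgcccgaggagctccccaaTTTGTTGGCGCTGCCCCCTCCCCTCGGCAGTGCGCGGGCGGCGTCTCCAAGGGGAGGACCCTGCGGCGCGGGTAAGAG
It also holds 1 CCAAT and 3 GGGCGG matches, on either strand.

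Col4a5, the X-linked chain of the alpha 3-4-5 and alpha 5-6 networks, had 12.5, 9.27 and 7.68 CPM in CKp25 and 10.4, 5.52 and 5.08 CPM in CK at 2 weeks. At 6 weeks it had 21.8, 13.9 and 19.5 CPM in CKp25 and 8.95, 4.65 and 12.2 CPM in CK. Only the 6-week groups were apart. Col4a6, its neighbour, had 5.25, 3.71 and 2.94 CPM in CKp25 and 4.19, 2.86 and 0.610 CPM in CK at 2 weeks. Its 6-week levels were 8.0, 4.03 and 8.55 CPM in CKp25 and 1.83, 1.42 and 3.32 CPM in CK. This gene too overlapped at 2 weeks and separated at 6 weeks.

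The 6-week log2 fold changes were 1.07 ± 0.29 (SE; adjusted p = 0.00990) for Col4a5 and 1.60 ± 0.45 (SE; adjusted p = 0.0114) for Col4a6. The Col4a5 call was lost without CKp25 library 1 or CK library 2 of 6 weeks (adjusted p 0.0518 and 0.0525), and the Col4a6 call without CKp25 library 3 or CK library 2 (0.0522 and 0.0543). Their starts lie 1343 bases apart on opposite strands of chromosome X, so the windows chrX:141474027-141474326 (Col4a6, minus strand) and chrX:141475169-141475468 (Col4a5, plus strand) share no base. They are shown for contrast with the shared window of the alpha 1 and alpha 2 genes, with CCAAT and GGGCGG matches in capitals.
Col4a6: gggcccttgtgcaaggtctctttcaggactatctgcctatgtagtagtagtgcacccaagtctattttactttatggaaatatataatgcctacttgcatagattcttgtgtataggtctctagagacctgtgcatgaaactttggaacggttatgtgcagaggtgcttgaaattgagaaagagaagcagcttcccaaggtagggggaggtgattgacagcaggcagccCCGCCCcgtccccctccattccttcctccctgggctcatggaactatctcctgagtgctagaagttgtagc
Col4a5: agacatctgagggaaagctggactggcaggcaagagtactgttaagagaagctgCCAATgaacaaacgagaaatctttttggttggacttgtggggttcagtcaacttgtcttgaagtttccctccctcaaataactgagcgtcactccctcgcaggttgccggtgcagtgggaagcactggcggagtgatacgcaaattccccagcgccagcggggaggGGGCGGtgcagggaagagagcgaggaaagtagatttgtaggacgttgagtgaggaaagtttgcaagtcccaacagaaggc

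Col4a3 and Col4a4, the chains best known from the kidney filter, were low, at 0.205 to 6.73 CPM and 0.203 to 5.59 CPM over the 12 libraries. Neither was called at either time in the fit of group means. In each of the 4 groups both were highest in the library with the highest choroid plexus marker sum. Among 14 other basement membrane genes (laminins, nidogens, perlecan and others), 0 were called at 2 weeks and 6 (42.9%) rose at 6 weeks, against 11.6% and 18.1% of all genes called higher. Their median log2 fold changes were 0.12 and 0.55. At least Lama1 of this list is also among the fibroblast markers. Lamb2, the laminin beta 2 chain, averaged 77.6 ± 15.1 CPM in CKp25 and 37.2 ± 3.67 CPM in CK at 6 weeks (SD, n = 3), a log2 fold change of 1.05 ± 0.15 (SE; edgeR adjusted p = 6.48e-05). Lama2, the alpha 2 chain, averaged 62.9 ± 9.54 CPM in CKp25 and 38.4 ± 1.75 CPM in CK (log2 0.71 ± 0.14, adjusted p = 0.000958).

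**Figure D3:**
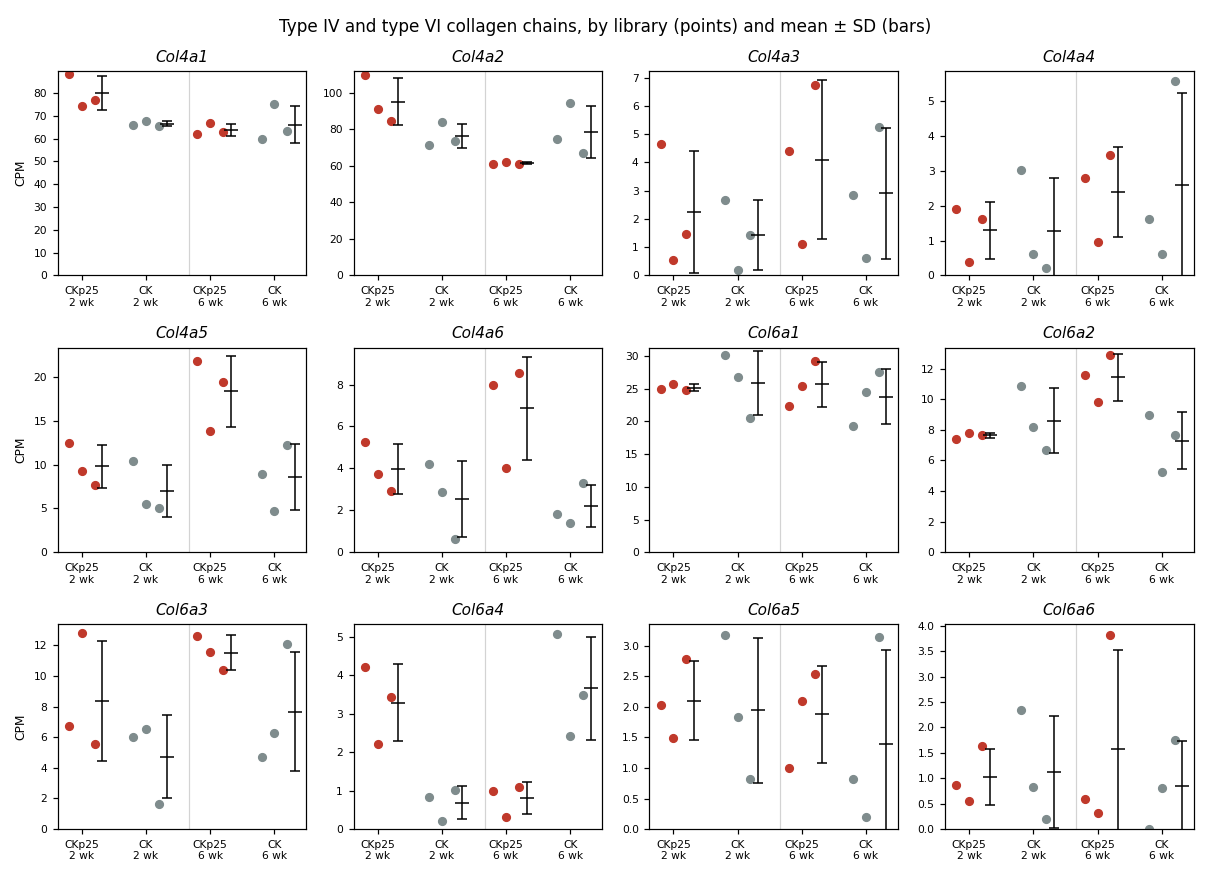
CPM in each library (points) with mean and SD (black bars, cut at 0) for the 6 type IV and 6 type VI genes, CKp25 in red and CK in grey at 2 and at 6 weeks. Col4a2 and Col6a4 are higher in CKp25 at 2 weeks and lower at 6 weeks, without overlap at either time. Col4a5 and Col4a6 are apart at 6 weeks.

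Type VI collagen forms beaded microfilaments around cells, from the Col6a1 and Col6a2 chains with a long alpha chain, Col6a3 to Col6a6. Col6a4 was the collagen with the largest fold changes, and their direction turned between the times. It had 4.23, 2.23 and 3.43 CPM in CKp25 and 0.838, 0.205 and 1.02 CPM in CK at 2 weeks. In the 6-week libraries it had 1.000, 0.322 and 1.09 CPM in CKp25 and 5.09, 2.43 and 3.49 CPM in CK.

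The CKp25 libraries were all higher at 2 weeks and all lower at 6 weeks. Its log2 fold change was 2.23 ± 0.49 (SE; adjusted p = 0.00368) at 2 weeks and -2.20 ± 0.48 (SE; adjusted p = 0.00186) at 6 weeks. The difference between them was -4.42 ± 0.68 (SE; adjusted p = 0.00830), the only such call among the collagens, of which 0 were called higher and 1 lower. DESeq2 gave no adjusted p for it (-4.48, unadjusted p = 2.88e-07). Over all genes 0.374% were called higher and 0.18% lower in that test, and Col6a4 ranked 11 of 14457 by its p. In all, 4 genes were called higher at 2 weeks and lower at 6 weeks, and 9 the other way. These levels rest on few counts: 143 in all 12 libraries, with 29, 12 and 21 in CKp25 and 5, 1 and 5 in CK at 2 weeks, and 5, 2 and 6 in CKp25 and 25, 12 and 20 in CK at 6 weeks.

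Time, read within genotypes, took opposite signs as well. Col6a4 was lower at 6 weeks than at 2 weeks within CKp25, by 2.06 ± 0.47 (SE; adjusted p = 0.00914). Within CK it was 2.36 ± 0.49 (SE; adjusted p = 0.506), with an unadjusted p of 0.000183 that did not pass over all genes. No single library's removal ended any of its calls. Col6a5 and Col6a6, its neighbours in a cluster on chromosome 9, had 0.202 to 3.19 CPM and 0 to 3.82 CPM over the 12 libraries, with overlapping groups at both times. For Col6a5 the log2 fold change was 0.08 ± 0.57 (SE; adjusted p = 0.946) at 2 weeks and 0.38 ± 0.63 (SE; adjusted p = 0.691) at 6 weeks.

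Col6a1 and Col6a2, the core chains, behaved differently from it. Col6a1 had 24.9, 25.8 and 24.8 CPM in CKp25 and 30.2, 26.8 and 20.5 CPM in CK at 2 weeks. The values at 6 weeks were 22.4, 25.4 and 29.3 CPM in CKp25 and 19.3, 24.5 and 27.6 CPM in CK, with overlap at both times. Col6a2 had 7.43, 7.79 and 7.68 CPM in CKp25 and 10.9, 8.18 and 6.71 CPM in CK at 2 weeks. Its levels at 6 weeks were 11.6, 9.82 and 12.9 CPM in CKp25 and 8.95, 5.26 and 7.68 CPM in CK, and it was called higher at 0.64 ± 0.21 (SE; adjusted p = 0.0277). That call was lost with DESeq2 (adjusted p = 0.0548) and without CKp25 library 1 or 3 or CK library 2 of 6 weeks (0.0710 to 0.136). Col6a3 ranged from 1.63 to 12.8 CPM and was not called.

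In the FACIT class, Col12a1, which binds type I fibrils, had 17.3, 14.7 and 16.7 CPM in CKp25 and 16.1, 11.5 and 10.6 CPM in CK at 2 weeks. At 6 weeks it had 22.6, 19.5 and 27.3 CPM in CKp25 and 13, 14.6 and 15.9 CPM in CK, without overlap. Its 6-week log2 fold change was 0.67 ± 0.16 (SE; adjusted p = 0.00436). Without 2-week CK library 1 it was also called at 2 weeks (0.56, adjusted p = 0.0356). Col19a1, a FACIT gene of hippocampal interneurons, had 38.9, 33.6 and 39.2 CPM in CKp25 and 40.7, 36.8 and 41.3 CPM in CK at 2 weeks. Its 6-week levels were 50.2, 47 and 39.8 CPM in CKp25 and 33.8, 52 and 35.1 CPM in CK, with overlap at both times. It was called at 6 weeks only without CK library 2 (0.40, adjusted p = 0.0181).

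Of the other FACIT genes, Col9a2, Col14a1, Col20a1 and Col22a1 lay between 0.556 and 10.7 CPM and were not called. Col9a2 at 6 weeks (0.88 ± 0.35 SE, adjusted p = 0.0640) and Col22a1 at 2 weeks (0.74 ± 0.42 SE, adjusted p = 0.251) had groups that did not overlap.

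Among the transmembrane collagens, Col13a1 had 1.60, 1.48 and 1.14 CPM in CKp25 and 1.84, 1.23 and 1.63 CPM in CK at 2 weeks. In the 6-week libraries it had 2.40, 2.09 and 3.09 CPM in CKp25 and 1.22, 1.21 and 1.40 CPM in CK, and was called at 0.96 ± 0.34 (SE; adjusted p = 0.0381). The groups did not overlap at 6 weeks, but the call was lost in 14 of 22 other settings, including DESeq2 (adjusted p = 0.192), limma-voom (0.0507) and leaving out 2-week CKp25 library 2, 2-week CK library 3, 6-week CKp25 library 1 or 3 or any 6-week CK library (0.0505 to 0.158). Col23a1 had 16.6, 14.8 and 13.1 CPM in CKp25 and 17.8, 15.3 and 11.6 CPM in CK at 2 weeks. The values at 6 weeks were 18, 13.2 and 18.9 CPM in CKp25 and 16.7, 12.3 and 9.78 CPM in CK, and overlapped at both times. It was called at 6 weeks only without CK library 1 (0.59, adjusted p = 0.0498).

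Col25a1, the neuronal collagen whose shed part was isolated from amyloid plaques, had 85.4, 71.6 and 70.3 CPM in CKp25 and 84.2, 82 and 87.8 CPM in CK at 2 weeks. Its levels at 6 weeks were 60.4, 78.9 and 74.6 CPM in CKp25 and 75.5, 87 and 74.7 CPM in CK. The groups overlapped at both times, with log2 fold changes of -0.16 ± 0.10 (SE; adjusted p = 0.313) and -0.14 ± 0.10 (SE; adjusted p = 0.308). Hippocampal neuron markers as a list had medians of -0.36 at 2 weeks and -0.60 at 6 weeks over 11 genes. Of the remaining types, Col7a1 ranged from 2.46 to 4.40 CPM and Col26a1 from 1.22 to 5.40 CPM. Col26a1 did not overlap at 6 weeks and missed the threshold (0.99 ± 0.37 SE, adjusted p = 0.0505).

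Some collagens were high in the libraries with choroid plexus signal, in either genotype. Col8a2, a network collagen of specialised basement membranes, had 14.4, 3.15 and 4.25 CPM in CKp25 and 10.1, 1.84 and 2.03 CPM in CK at 2 weeks. At 6 weeks it had 17.8, 3.22 and 33.5 CPM in CKp25 and 7.93, 2.02 and 20.6 CPM in CK. In both genotypes library 1 was the highest at 2 weeks and library 2 the lowest at 6 weeks. Col9a3, a chain of type IX, had 27.1, 14.7 and 14.6 CPM in CKp25 and 19, 9.62 and 8.13 CPM in CK at 2 weeks. Its 6-week levels were 46.6, 19.7 and 46 CPM in CKp25 and 17.3, 9.91 and 46.3 CPM in CK.

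The choroid plexus sum, in the same library order, was 1276, 34.5 and 369 CPM in CKp25 and 1048, 38.0 and 24.2 CPM in CK at 2 weeks. At 6 weeks it was 1271, 25.0 and 2273 CPM in CKp25 and 711, 44.3 and 2625 CPM in CK. In each of the 4 groups the library with the highest sum also had the highest Col8a2, and the highest Col8a1, which ranged from 1.01 to 21.5 CPM. Col9a3 did so in 3 of the 4 groups. Col8a1, Col8a2 and Col9a3 were not called at either time. With the choroid plexus marker mean as a term in the fit, Col8a2 and Col9a3 were called higher at 6 weeks (0.57, adjusted p = 0.0256, and 0.55, adjusted p = 0.0248). Without 6-week CK library 3, Col9a3 was called at 6 weeks as well (1.44, adjusted p = 0.0121). Over the 23 other settings the 6-week value ran from -2.19 to 2.22 for Col8a2 and from -0.75 to 1.44 for Col9a3. The sign of both thus depended on the setting. Among the choroid plexus markers 0 of 10 were called at either time, and Folr1, Kcnj13 and Otx2 were at 0 in 1 library each.

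**Figure D4:**
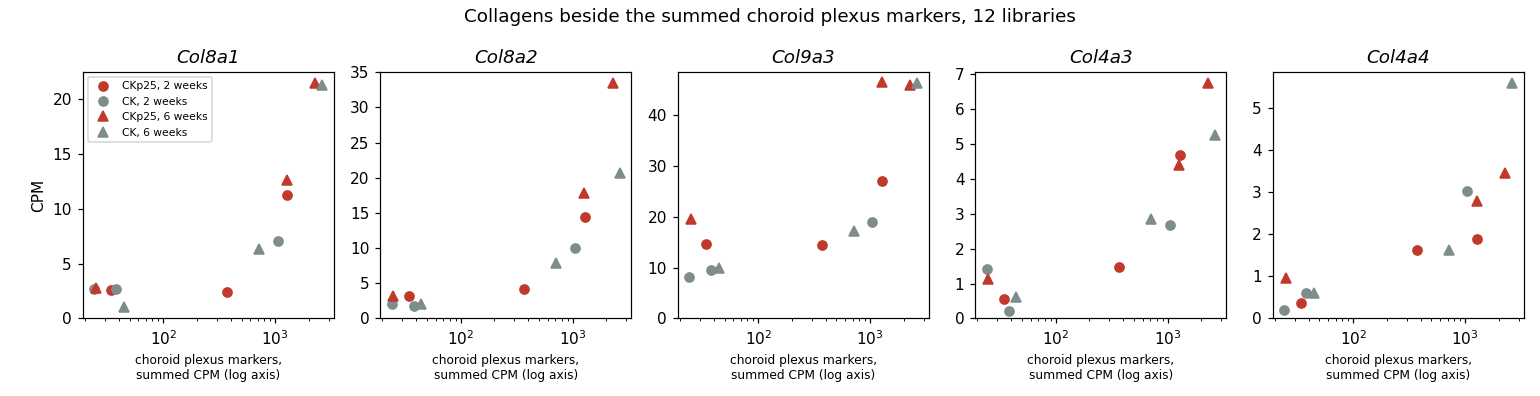
CPM of 5 collagens against the summed CPM of 10 choroid plexus markers (log axis) in the 12 libraries, CKp25 in red and CK in grey, 2 weeks as circles and 6 weeks as triangles. Libraries of both genotypes with a sum above 1000 CPM hold the highest values of Col8a1 and Col8a2, up to 21.5 and 33.5 CPM.

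The collagens called at 6 weeks differed in how far they went with fibroblast markers. These 13 markers (Dcn, Lum, Fmod, Ogn and others) summed to 201 to 242 CPM in CKp25 and 133 to 324 CPM in CK at 2 weeks, and to 219 to 433 CPM in CKp25 and 156 to 241 CPM in CK at 6 weeks. None of the 13 was at 0 in any library. Of the list, 0 were called at 2 weeks and 9 (69.2%) rose at 6 weeks, against 11.6% and 18.1% of all genes, with medians of -0.09 and 1.28. Fmod, a fibril-binding proteoglycan, averaged 27.4 ± 13.4 CPM in CKp25 and 5.26 ± 2.61 CPM in CK at 6 weeks (SD, n = 3). Mural markers rose in 8 of 10 cases and endothelial markers in 10 of 11 at 6 weeks, against 1 and 0 at 2 weeks, and the mural share at 2 weeks (10%) was near that of all genes. Astrocyte markers rose in 4 of 6 cases at 2 weeks and 6 of 6 at 6 weeks, border macrophage markers in 0 and 4 of 4, oligodendrocyte markers in 0 and 6 of 6, and precursor markers in 1 and 3 of 4.

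With the mean level of the fibroblast markers as a term in the fit, 4 collagens were called higher at 6 weeks instead of 13, and the median log2 fold change of the collagens was 0.041. The term lowered the calls over all genes too, to 9.51% higher instead of 18.1%, and the 4 collagens (10.3%) are near that share. The 4 were Col16a1 (1.16, adjusted p = 0.00464), Col27a1 (1.20, adjusted p = 0.00536), Col15a1 (0.92, adjusted p = 0.0449) and Col11a2 (0.89, adjusted p = 0.00596). Col1a1 came to 0.80 (adjusted p = 0.0516) and Col1a2 to 0.53 (adjusted p = 0.0578), and both missed the threshold narrowly. Col3a1 came to 0.11, Col12a1 to 0.28, Col4a5 to 0.26 and Col4a6 to 0.16 (adjusted p 0.353 to 0.887), none of them called. Col6a4 was still lower (-2.46, adjusted p = 0.0266) and Col4a2 was not called (-0.23). Col4a4, which has 129 counts in all and was highest where choroid plexus signal was highest, was called lower (-2.93, adjusted p = 0.0128). The marker mean itself was higher in CKp25 at 6 weeks, so this term and the genotype cannot be told apart for those genes, and the part of fibroblasts in the result was not tested. At 2 weeks the same term left 7 collagens higher (17.9%, against 11.6% of all genes), Col4a2 in addition to the 6.

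**Figure D5:**
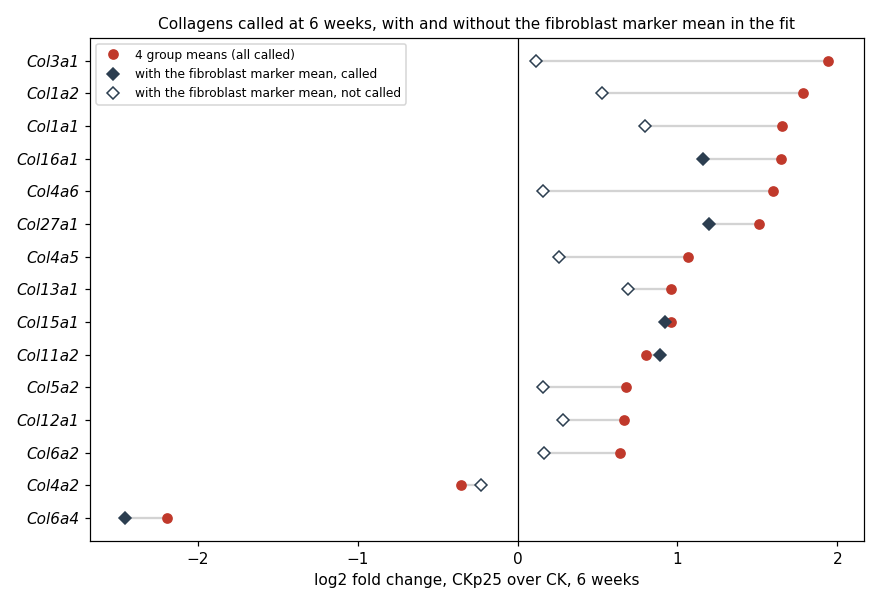
Log2 fold change, CKp25 over CK at 6 weeks, of the 15 called collagens in the fit of group means (red circles) and with the fibroblast marker mean added (dark diamonds, filled where still called). Col3a1 lies at 1.94 and 0.11 and Col15a1 at 0.96 and 0.92.

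Within CKp25, 5 collagens were higher at 6 weeks than at 2 weeks and 3 were lower, 12.8% and 7.69% of those tested, against 6.12% and 5.53% of all genes. Beside Col27a1, Col4a1, Col4a2 and Col6a4, these were Col11a2 (0.70 ± 0.14 SE, adjusted p = 0.00428), Col1a2 (1.13 ± 0.32 SE, adjusted p = 0.0285), Col12a1 (0.50 ± 0.16 SE, adjusted p = 0.0463) and Col1a1 (0.81 ± 0.25 SE, adjusted p = 0.0475). Only Col11a2, Col4a2 and Col6a4 kept their calls without any single library. The Col1a2 call was lost without 2-week CKp25 library 1 or 3 or 6-week CKp25 library 1 or 3 (adjusted p 0.0790 to 0.146). Those of Col12a1 and Col1a1 were lost without any one of 8 libraries, each 2-week CKp25 library, 2-week CK library 2, 6-week CKp25 library 1 or 3 and 6-week CK library 1 or 2 (adjusted p 0.0546 to 0.213 and 0.0542 to 0.211). Within CK, 0 collagens were called higher (0% of all genes) and 0 lower (0%) between the times. edgeR gave 560 genes and 1 collagen, Col6a4, at an unadjusted p under 0.05, and DESeq2 and limma-voom also called 0 genes.

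The genes that modify, process and bind collagen were read as lists, beside 11.6% of all genes called higher and 7.99% lower at 2 weeks, and 18.1% higher and 15.2% lower at 6 weeks. Of 17 modification and folding genes, 6 (35.3%) rose at 2 weeks and 7 (41.2%) at 6 weeks. Plod3, a lysyl hydroxylase, averaged 35.6 ± 3.24 CPM in CKp25 and 23.7 ± 1.41 CPM in CK at 2 weeks (SD, n = 3; log2 fold change 0.59 ± 0.11, adjusted p = 0.00121). Fkbp10, a collagen chaperone, averaged 12.96 ± 1.35 CPM in CKp25 and 5.97 ± 0.93 CPM in CK at 6 weeks (1.11 ± 0.19, adjusted p = 0.000245). P4hb, the beta subunit of prolyl 4-hydroxylase, averaged 98.2 ± 8.24 CPM in CKp25 and 70.4 ± 4.81 CPM in CK (0.48 ± 0.09, adjusted p = 0.000552).

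Of 11 processing and cross-linking genes 1 (9.09%) rose at 2 weeks, and 2 (18.2%) rose and 1 (9.09%) fell at 6 weeks, shares near or below those of all genes (11.6% higher at 2 weeks, 18.1% higher and 15.2% lower at 6 weeks). Lox, the lysyl oxidase that starts cross-links, had 7.60, 3.70 and 5.27 CPM in CKp25 and 0.610, 0 and 0.349 CPM in CK at 6 weeks. A count of 0 allows up to 3 counts, at most 0.614 CPM in any library. Loxl3 rose at both times (1.21 ± 0.27, adjusted p = 0.00443, and 1.16 ± 0.26, adjusted p = 0.00269). Adamts3, a protease that removes the amino end of procollagen, fell by 0.61 ± 0.13 at 6 weeks (adjusted p = 0.00184).

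Among 9 collagen receptors 5 (55.6%) rose at 2 weeks and 7 (77.8%) at 6 weeks, against 11.6% and 18.1% of all genes. Lair1, an inhibitory receptor of immune cells, averaged 24.8 ± 1.68 CPM in CKp25 and 8.09 ± 0.50 CPM in CK at 2 weeks, and 35.8 ± 9.85 CPM in CKp25 and 7.79 ± 1.72 CPM in CK at 6 weeks (SD, n = 3 each). Ddr1, a receptor tyrosine kinase for collagen, averaged 67.3 ± 5.28 CPM in CKp25 and 44.4 ± 1.71 CPM in CK at 2 weeks, and 94.3 ± 14.8 CPM in CKp25 and 43.5 ± 5.18 CPM in CK at 6 weeks. Lair1 is also made by microglia, whose 8 markers had a median log2 fold change of 2.02 at 2 weeks and 2.36 at 6 weeks.

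Of 10 degrading proteases and inhibitors, 3 (30%) rose and 1 (10%) fell at 2 weeks, and 7 (70%) rose and 1 (10%) fell at 6 weeks. All genes gave 11.6% higher and 7.99% lower at 2 weeks and 18.1% higher and 15.2% lower at 6 weeks, so the share that fell was near or below the background. Timp1, an inhibitor of matrix metalloproteases, had 4.96, 4.64 and 3.10 CPM in CKp25 and 0 counts in all 3 CK libraries at 2 weeks. In the 6-week libraries it had 2.60, 1.77 and 2.00 CPM in CKp25 and 0.203, 0 and 0.175 CPM in CK. Mmp16, a membrane metalloprotease, was the one that fell, by 0.40 ± 0.08 at 2 weeks (adjusted p = 0.0022) and by 0.41 ± 0.08 at 6 weeks (adjusted p = 0.00106).

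Of 18 other fibrillar matrix genes 4 (22.2%) rose at 2 weeks and 12 (66.7%) at 6 weeks, against 11.6% and 18.1% of all genes, with medians of 0.27 and 1.08. At least Fmod is also among the fibroblast markers, so these lists are not separate. Sparc, a collagen-binding glycoprotein, averaged 225 ± 4.18 CPM in CKp25 and 126 ± 5.09 CPM in CK at 2 weeks, and 235 ± 29.6 CPM in CKp25 and 115 ± 7.94 CPM in CK at 6 weeks (SD, n = 3 each). Of 16 TGF-beta signalling genes, the pathway best known for raising type I collagen, 4 (25%) rose at 2 weeks, and 7 (43.8%) rose and 1 (6.25%) fell at 6 weeks, against 11.6% of all genes higher at 2 weeks, and 18.1% higher and 15.2% lower at 6 weeks. Tgfbr2, the type II receptor, averaged 77.2 ± 17.7 CPM in CKp25 and 17.8 ± 2.26 CPM in CK at 6 weeks (2.10 ± 0.16, adjusted p = 5.29e-08). Smad3, a transducer of the pathway, fell by 0.38 ± 0.08 (adjusted p = 0.00209). Which cells carried these transcripts was not tested.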

How the data were processed

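RNA was sequenced from 12 hippocampal libraries in 4 groups of 3, from a stranded total RNA kit with Ribo-Zero, per the labels' protocols. The deposited values are raw read counts per Ensembl gene. The submitters' processing notes name Bowtie, Picard and HTSeq 0.6.1 and the builds NCBIM37 and mm9, with no roles; they do not state whether HTSeq used strand, and an antisense gene may share reads with a collagen. Rows naming no gene (reads with several alignments, 6.81% to 14.3% of a library's reads, and 4 other kinds) were left out. IDs were named by an ID table (86.6% of genes).

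The counts were analysed with edgeR 4.0.16 in R 4.3.3: filterByExpr, TMM scaling, 4 group means over all 12 libraries, the quasi-likelihood test and Benjamini-Hochberg adjustment over 14457 genes, with calls at adjusted p under 0.05. Every adjusted p is from this fit unless another tool, a left-out library, an added term or another filter is named. Those settings were fitted anew, with adjustment over the genes each of them tested. The pipeline was tested on simulated data. A standard error is the log2 fold change divided by the root of F. CPM values use TMM-scaled library sizes. No pair of libraries of a group agreed within sampling noise (chi-square per gene 1.48 to 9.15). Intervals of counts cover counting error only.

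The members and the lists of companion and marker genes were chosen with earlier results of these data known. Collagens called in any comparison or averaging at least 10 CPM are given per library, the others by range, and from each other list the 2 genes of lowest adjusted p per time and direction could be named. DESeq2 1.42.0, limma 3.58.1, other filters, added terms, thinning of counts to 50% and leaving out libraries were alternatives. The deposited histone mark peak lists were not used here.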

Additional observations from a re-analysis of the deposited data

Results flagged for a closer look

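The effect of genotype on Col6a4 differed between the times: the log2 fold change of CKp25 over CK at 6 weeks minus that at 2 weeks was -4.42 ± 0.68 (SE; edgeR adjusted p = 0.00830), from 2.23 ± 0.49 at 2 weeks and -2.20 ± 0.48 at 6 weeks. All 3 CKp25 libraries were above all 3 CK libraries at 2 weeks and below them at 6 weeks. The whole gene rests on 143 counts in 12 libraries.

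Col4a2 had the same arrangement of libraries, higher in every CKp25 library at 2 weeks and lower in every one at 6 weeks. How many of all genes have this arrangement was not counted, and Col4a2 was not called at 2 weeks. Its difference between the times was -0.68 ± 0.17 (SE; edgeR adjusted p = 0.0668), which did not pass, while DESeq2 gave an adjusted p of 0.0151.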

How the results depend on the processing

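Under 23 other settings, 13 of the 30 calls of a collagen in a comparison held throughout, among them Col16a1, Col15a1 and Col27a1 at both times, Col2a1 at 2 weeks, Col11a2 at 6 weeks and Col6a4 at 2 weeks and at 6 weeks, and none reversed. The difference between the times for Col6a4 held wherever an adjusted p was given, and DESeq2 gave none. With no filter on low counts, 11 collagens were higher at 2 weeks (25%, against 8.65% of all genes), 3 higher and 2 lower in the difference between the times (6.82% and 4.55%, against 1.84% and 1.16%), 10 higher at 6 against 2 weeks in CKp25 (22.7%, against 5.35%), and 4 higher and 1 lower in CK (9.09% and 2.27%, against 0.286% and 0.278%). With the fibroblast marker mean in the fit, 4 were higher at 6 weeks (10.3%, against 9.51%; median log2 fold change 0.041), and 1 was higher over time in CKp25 (2.56%, against 3.31%; median -0.12). With the share of reads with several alignments in the fit, 1 was lower at 6 weeks (2.56%, against 11.9%). That fit gave 3 higher in the difference between the times (7.69%, against 1.40%) and 11 higher over time in CKp25 (28.2%, against 7.77%). At 6 weeks that share was 11.5%, 13.9% and 13.8% in CKp25 and 9.52%, 6.86% and 7.32% in CK. The groups did not overlap, so this term and the genotype cannot be told apart at 6 weeks. With the choroid plexus marker mean, 1 was higher and 2 lower in the difference (2.56% and 5.13%, against 1.41% and 0.657%). Over time in CKp25, 3 were higher with RLE size factors (7.69%, against 5.84%), with DESeq2 (7.69%, against 4.59%) and with counts thinned to 50% (9.09%, against 4.43%). Leaving out each library in turn gave 9 to 15 higher at 6 weeks (22.5% to 37.5%, against 13.7% to 18.2%). It gave 1 to 2 lower at 6 weeks (2.5% to 5.13%, against 10.2% to 16.3%). In the difference, 0 to 1 were higher (0% to 2.5%, against 0.0958% to 0.853%). There, 1 to 2 were lower (2.5% to 5%, against 0.0339% to 0.539%). It gave 1 to 7 higher over time in CKp25 (2.5% to 17.9%, against 2.93% to 6.58%). The cause of these shifts was not tested. No paired analysis was possible because the groups share no library numbers, and the labels do not say what neighbouring numbers of different groups mark. Of the called collagens, Col13a1, Col6a4 and Col2a1 had the fewest counts (113, 143 and 203 in 12 libraries), and the 5 untested collagens could not be assessed at this depth.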
